A study of Triticum aestivum with 10 samples.

Results

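Transcripts of the wheat 6-FEH gene (symbol LOC780575) and of the XTH gene were followed through grain development on the Affymetrix wheat array, where the array annotation pairs 4 of 61179 probe sets with them by symbol or synonym, that is, 3 with 6-FEH and 1 with XTH, 2 of the 771 genes that it names. They are called here by the ends of their identifiers, namely the _a_at, _x_at and _at probe sets of 6-FEH and the _at probe set of XTH. Both genes had been proposed, as early genes that decline, chosen by their log2 values along the stages of these same arrays, so those levels are described here without a test. Of the 4 probe sets, only that of XTH had a lower stage mean at every step. For 6-FEH, the _a_at probe set was lowest at 200 degree days (DD) and back at its 100 DD level at 500 DD. The _x_at probe set was also lowest at 200 DD and stayed well above background. At 500 DD it was lower than on the single 100 DD array by 2.25 on the log2 scale. The _at probe set was at background on every array.

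The grains (endosperm and embryo) came from greenhouse plants of the hexaploid bread wheat *Triticum aestivum* cv. Récital, which had first been vernalized. RNA of each sample was hybridized to 1 array. There were 5 stages, named by thermal time from pollination as 100, 200, 250, 300 and 500 DD, of which the study counts the first 3 as cell division and the last 2 as filling, with 2 biological replicates per stage taken in different years. Replicate 1 is labelled 130, 185, 230, 290 and 490 DD and replicate 2 is labelled 100, 200, 250, 300 and 500 DD. The unit is the log2 value that GCRMA gives once it has removed an estimate of unspecific binding to the probes, and 4 was taken as the background level, below which the size of a difference is not measured.

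Fructans are soluble polymers of fructose built on sucrose, which young wheat grains store and later use up. Fructan exohydrolases release fructose from the ends of these chains, and 6-FEH acts on the beta-2,6 linkages that characterize the levan-type and branched fructans of grasses. It belongs to the same glycoside hydrolase family as the invertases. Xyloglucan endotransglycosylases, encoded by XTH genes, cut the hemicellulose xyloglucan and join the cut end to another chain, which loosens or rebuilds the wall around growing cells. Since bread wheat holds A, B and D copies of most genes, a probe set can report 1 copy or several. In the naming of the array, the ending _a_at marks probes shared by transcripts of 1 gene and _x_at marks probes that can bind unrelated transcripts, so both measurable 6-FEH probe sets may mix copies, and XTH is read by a probe set with the plain ending _at.

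The array labelled 100 DD replicate 2 went against its label and was left out of all values below unless it is named. Across probe sets its r was 0.987 with the second 500 DD array but 0.632 with the other 100 DD array, while the replicates of the other stages correlated at 0.934 to 0.960. The stage of 100 DD therefore rests on 1 array. Among the marker lists, 14 of 15 tested probe sets of starchy endosperm and 10 of 10 of the embryo were higher in filling than in division, against 11.2% of all tested probe sets, and 3 of 3 of green tissue and 18 of 28 of dividing cells were lower, against 15.3% (limma, adjusted p under 0.05). The remaining probe set of starchy endosperm and 9 of dividing cells did not pass, and 1 of dividing cells was higher. In this contrast the lone 100 DD array weighs as much as the mean of 200 or of 250 DD. The marker counts were not repeated without it. The summed level of the endosperm list (log2) was 8.43 on that array, 17.38 to 18.05 at 200 and 250 DD and 17.97 to 18.18 in filling. Storage protein and purothionin markers of the endosperm were at 4 or above for only 3 of 16 probe sets on 100 DD replicate 1, against 14 or 15 of 16 on the other arrays used, and embryo markers for 1 of 10 up to 250 DD, for 7 and 5 of 10 at 300 DD and for 10 of 10 at 500 DD.

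XTH was highest on the single 100 DD array, at 8.33 on the log2 scale. It was at 6.65 and 6.90 on replicates 1 and 2 at 200 DD, at 6.67 and 5.79 at 250 DD, at 5.79 and 5.06 at 300 DD, and at 4.90 and 2.98 at 500 DD. The arrays of 200 and 250 DD overlapped, and all arrays of 300 DD and 500 DD lay below both arrays of 200 DD. Its mean at 200 DD was 6.78 ± 0.18, followed by 6.23 ± 0.62 at 250 DD, 5.42 ± 0.52 at 300 DD and 3.94 ± 1.36 at 500 DD (each SD, n = 2), so that each stage was lower than the one before it, although the last mean holds a value under the background level. A mean that was lower at every step, with the 100 DD array above both 200 DD arrays, was shared by 8.69% of the tested probe sets. These are the 24727 probe sets with a value of 4 or above on at least 2 arrays, a filter that 3 of the 4 members passed.

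From 100 to 200 DD it was lower by 1.55 on the log2 scale, that is, 2.93-fold, with a standard error of 0.13 that holds only the spread at 200 DD. From 200 to 250 DD it was lower by 0.55 (standard error 0.45), which did not stand clear of the spread between replicates. From 250 to 300 DD it was lower by 0.81, with -0.88 in replicate 1 and -0.74 in replicate 2, so that both pairs gave nearly the same difference, while the standard error without pairing was 0.57 because replicate 2 lay below replicate 1 at both stages. From 300 to 500 DD it was lower by 0.89 in replicate 1, where both values were above background. In replicate 2, whose 500 DD value was under 4, it was lower by at least 1.06, the difference with that value set to 4, and the mean was thus lower by at least 0.97. Over the longer interval from 200 to 500 DD, which does not use the 100 DD array, XTH was lower by 1.75 in replicate 1 and by at least 2.90 in replicate 2, and its mean by at least 2.33. In this interval, with values under 4 set to 4, 12.9% of tested probe sets were lower by at least 1 with arrays that did not overlap, and XTH was the only one of the 3 tested members among them.

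XTH reached background on 1 of its 2 arrays at 500 DD. Replicate 1 was still above 4 at that stage, at 4.90, while replicate 2 was below it, at 2.98, so the full size of the difference on replicate 2 is not measured. Of the 21504 tested probe sets at 4 or above on the 100 DD array, 6.47% had both 500 DD arrays under 4 and 5.82% had only 1 of them under 4, as XTH had. The left-out array labelled 100 DD replicate 2 had XTH at 3.77, between the 500 DD arrays and far below the other 100 DD array. With both 100 DD arrays averaged, XTH would be higher at 200 DD than at 100 DD by 0.73 instead of lower.

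**Figure D1:**
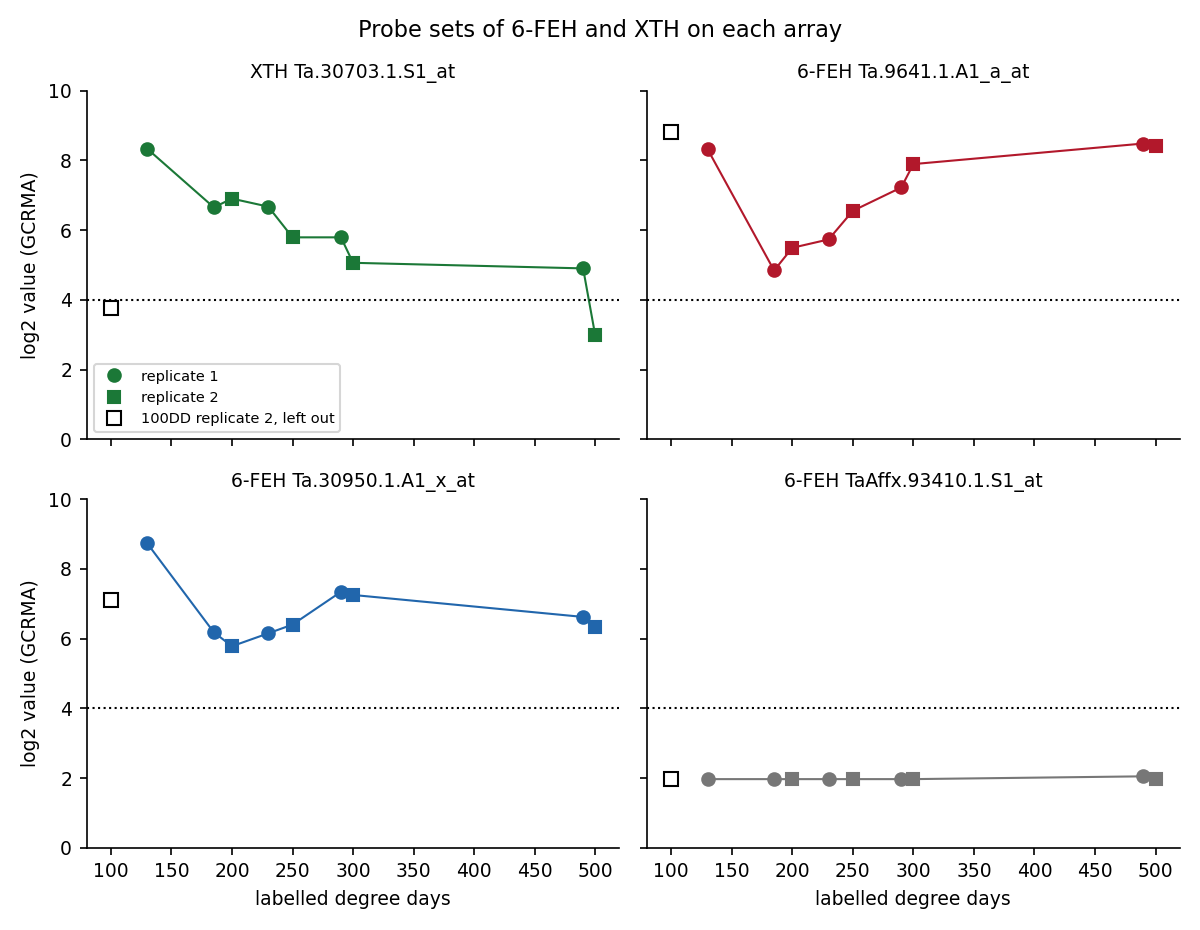
Log2 values of the 4 probe sets of XTH and 6-FEH against the degree days in the labels, with circles for replicate 1, squares for replicate 2, an open black square for the left-out array labelled 100 DD replicate 2 and a dotted line at the background level of 4. XTH runs from 8.33 down to 2.98, the _a_at probe set has its lowest value of 4.84 at 185 DD and ends at 8.41, the _x_at probe set stays between 5.78 and 8.73, and the _at probe set of 6-FEH lies at 1.97 to 2.05.

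The _a_at probe set of 6-FEH gave a course that first went down and then up. It was at 8.32 on the 100 DD array, at 4.84 and 5.49 at 200 DD (replicates 1 and 2), at 5.73 and 6.55 at 250 DD, at 7.22 and 7.89 at 300 DD and at 8.48 and 8.41 at 500 DD. The arrays of neighbouring stages did not overlap at any step. Arranged by labelled degree days, each array after that of 185 DD and up to that of 490 DD was higher than the one before it, and the arrays labelled 490 and 500 DD differed by only 0.07. The stage means were 5.17 ± 0.46 at 200 DD, 6.14 ± 0.58 at 250 DD, 7.55 ± 0.47 at 300 DD and 8.45 ± 0.05 at 500 DD (each SD, n = 2).

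This probe set was lower at 200 DD than at 100 DD by 3.15 on the log2 scale (standard error 0.32), that is, 8.87-fold, and higher at 500 DD than at 200 DD by 3.28 (standard error 0.33), that is, 9.72-fold. The second of these differences was 3.64 in replicate 1 and 2.92 in replicate 2, and so does not depend on the 100 DD array. In the same interval 11.1% of tested probe sets were higher by at least 1 without overlap. The 500 DD mean was higher than the 100 DD array by 0.13, and with both 100 DD arrays averaged it was lower (-0.12), so the 2 ends of the series cannot be ordered. A stage mean at 200 DD that was at least 2 below both 100 DD and 500 DD was found for 36 of 24727 tested probe sets (0.146%), a pattern defined after this probe set had been seen. On the left-out array labelled 100 DD replicate 2 its value was 8.82, above all 9 arrays used.

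The _x_at probe set of 6-FEH shared the first part of this course and not the last. It was at 8.73 on the 100 DD array, 6.18 and 5.78 at 200 DD, 6.15 and 6.40 at 250 DD, 7.34 and 7.25 at 300 DD and 6.62 and 6.34 at 500 DD. The 100 DD array stood above all others, the arrays of 200 and 250 DD overlapped, and both arrays of 300 DD stood above those of 200, 250 and 500 DD. From 100 to 200 DD it was lower by 2.75 (standard error 0.20), from 250 to 300 DD higher by 1.02 (standard error 0.13) and from 300 to 500 DD lower by 0.82 (standard error 0.15). In the step from 250 to 300 DD the _a_at probe set was higher too, by 1.41 (standard error without pairing 0.53). Its difference was 1.49 in replicate 1 and 1.34 in replicate 2. In this step 2.16% of tested probe sets were higher by at least 1 without overlap, as both were. The _x_at probe set ended at 6.48 ± 0.20 (SD, n = 2), which is 2.48 above the background level, and 4.75-fold (2.25 on the log2 scale) below the 100 DD array, a difference that was -1.44 with both 100 DD arrays averaged. From 100 to 500 DD 21.0% of tested probe sets were lower by at least 1 without overlap, with values under 4 set to 4, among them this one and XTH. The left-out array had it at 7.11, outside the range of the 500 DD arrays and below 100 DD replicate 1.

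The _at probe set of 6-FEH lay between 1.97 and 2.05 on the 9 arrays and at 1.96 on the left-out array. It was under 4 everywhere, as were 55.6% of all 61179 probe sets, and gives no course for the gene.

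From 100 to 200 DD all 3 tested members were lower by at least 1 with no overlap, which 13.3% of tested probe sets were (12.5% with values under 4 set to 4), but this is the interval for which they had been proposed and it rests on 1 array at 100 DD. Differences lower than theirs were held by 0.534% of tested probe sets for the _a_at probe set, 0.878% for the _x_at probe set and 5.34% for XTH. These shares only describe values that had a part in the choice of the members, and are no test of them. From 300 to 500 DD both measurable 6-FEH probe sets moved apart, since the _a_at probe set was higher by 0.89 (standard error 0.34) and the _x_at probe set was lower by 0.82, in both replicates of each. Over the 9 arrays these 2 probe sets correlated at r = 0.602. XTH correlated with the _a_at probe set at -0.430 over 9 arrays and at -0.865 over the 8 arrays without 100 DD, and with the _x_at probe set at 0.352 and -0.321. These correlations are descriptions over arrays that share the order of the stages, and those of XTH use its value of 2.98 as deposited.

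**Figure D2:**
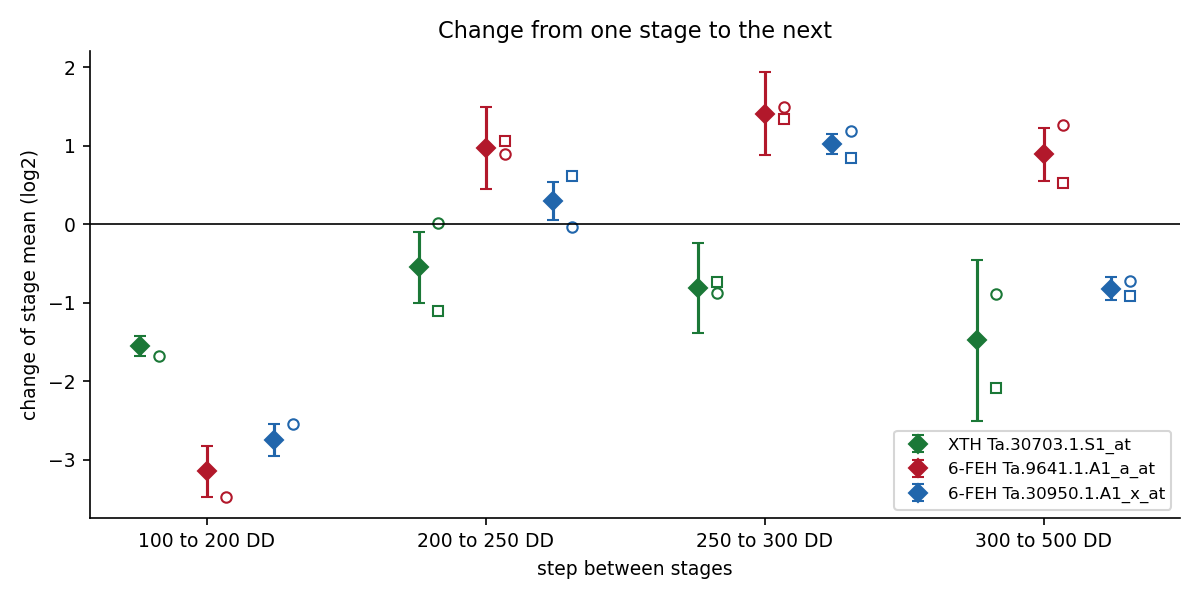
Change of the stage mean on the log2 scale between neighbouring stages for XTH and both measurable 6-FEH probe sets, with filled diamonds and bars for the difference and its standard error (1 array at 100 DD adds no spread), open circles for the replicate 1 arrays alone and open squares for the replicate 2 arrays alone. All 3 are below 0 from 100 to 200 DD, and from 300 to 500 DD the _a_at probe set is above 0 by 0.89 while XTH is below 0 by 1.48, a value that includes the 500 DD array under background and is at least 0.97 with that array at 4.

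**Figure D3:**
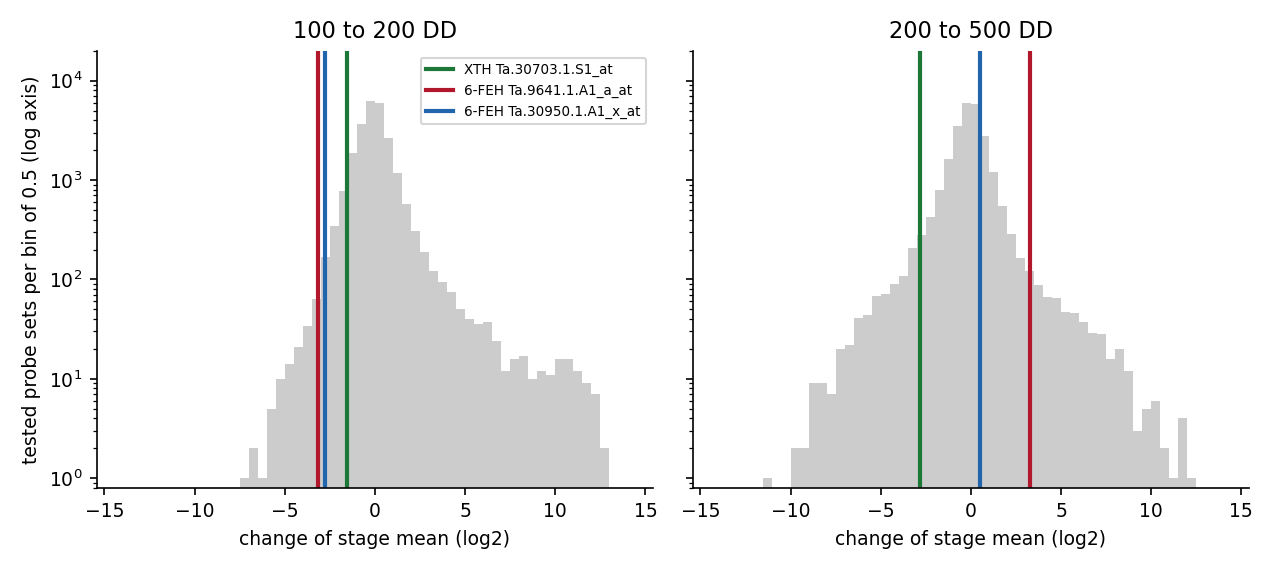
Number of tested probe sets, on a log axis, by change of the stage mean from 100 to 200 DD and from 200 to 500 DD in bins of 0.5 on the log2 scale, with vertical lines for XTH and both measurable 6-FEH probe sets. From 100 to 200 DD all 3 lie on the lower side, and from 200 to 500 DD they lie at -2.84 (XTH, with 1 of its 500 DD arrays under background), 0.50 (the _x_at probe set) and 3.28 (the _a_at probe set).

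The 2 replicates of a stage were compared next, since this difference had no part in the choice of the genes. With the stages as covariates, replicate 2 differed from replicate 1 by -0.82 for XTH (standard error 0.34, adjusted p = 0.275 from limma), lower at 3 of 4 stages. This difference was -0.45 with 1 of the 500 DD arrays left out (whichever it was), -1.17 with 1 of the 200 DD arrays left out, -0.56 with values under 4 set to 4 and -1.57 with all 10 arrays, so that its size rests in part on the 500 DD pair, of which replicate 2 was under background. For the _a_at probe set the difference was 0.52 (standard error 0.19, adjusted p = 0.240 from limma), higher at 3 of 4 stages, and for the _x_at probe set it was -0.13 (standard error 0.17, adjusted p = 0.711 from limma). None passed, and limma called 0% of tested probe sets here, with 18.3% at an unadjusted p under 0.05. Replicate 2 is labelled with more degree days than replicate 1 at each of these 4 stages, so that year and sampling time cannot be told apart.

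Few other genes of fructan, sucrose or cell wall metabolism carry a name in the annotation. 1-FEHw2 (LOC543441), an exohydrolase that acts on the beta-2,1 linkages of fructans, was at 7.32 on the 100 DD array, at 8.00 and 8.22 at 200 DD, at 8.61 and 8.42 at 250 DD, at 8.89 and 8.59 at 300 DD and at 9.03 and 9.71 at 500 DD. Its lowest array was thus the 100 DD array, where both measurable 6-FEH probe sets were high. It rose from division to filling by 1.07 in the contrast of stage means (standard error 0.20, adjusted p = 0.00948 from limma), but without the single 100 DD array it did not pass (adjusted p = 0.0553). IVR1 (LOC543415), an invertase, was at background, from 2.26 to 2.32. The list of fructan and sucrose genes thus had 1 of 1 tested probe sets higher and 0 lower, where 26.5% of all tested probe sets were called in either direction.

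For cell wall genes, the list held COMT1 (LOC543449), a methyltransferase of lignin synthesis, and its 1 tested probe set was higher in filling. It was at 10.47 on the 100 DD array and between 11.22 and 11.94 on all others, and rose by 0.78 (standard error 0.16, adjusted p = 0.0127 from limma). Without the 100 DD array this call also ended (adjusted p = 0.102). With all 10 arrays neither gene passed (adjusted p = 0.542 for 1-FEHw2 and 0.545 for COMT1).

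By likeness of course, the named gene nearest to XTH was FBP, the chloroplast fructose bisphosphatase, with r = 0.975 over the 9 arrays. It was at 8.27 on the 100 DD array, 7.72 at 200 DD, 6.83 at 300 DD and 5.84 at 500 DD as means. The next were LOC780690 (r = 0.973) and LOC543310 (r = 0.965), which the files name by locus number only. Over all tested probe sets 611 (2.47%) correlated with XTH at over 0.9, against 54 (0.218%) for the _a_at probe set and 28 (0.113%) for the _x_at probe set. Among named probe sets of other genes, 34 of 892 did so with XTH, against 8 and 3 of 891. All r values of XTH use its 2.98 on 500 DD replicate 2 as deposited, a value under background. The named genes nearest to the _a_at probe set were LOC543185 (r = 0.951), LOC100049043 (r = 0.938) and LOC542781 (r = 0.916). Of these, LOC543185 was nearly flat, from 11.52 to 11.87, and LOC100049043 ran from 8.53 to 9.62. LOC542781 covered the widest range, from 6.35 to 10.05. Those nearest to the _x_at probe set were LOC542876 (r = 0.910), LOC543150 (r = 0.904) and LOC778385 (r = 0.901), and without the 100 DD array these values were 0.860, 0.675 and 0.698. LOC543150 and LOC778385 had 200 DD means of 3.45 and 3.96, under the background level, so the depth of their low point is not measured.

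Markers of grain tissues moved along the same stages, and in whole grains fewer cells of a type and less RNA per cell cannot be told apart. The summed level of 3 green tissue probe sets was 12.32 on the log2 scale at 100 DD, 11.90 on both arrays at 200 DD, 11.23 to 11.57 at 250 DD, 10.43 to 10.86 at 300 DD and 7.84 to 8.65 at 500 DD, the same order of stages as that of XTH. That of 28 probe sets of dividing cells was 16.49 at 100 DD, 15.42 to 15.99 at 200 DD, 15.28 to 15.38 at 250 DD, 15.28 to 15.34 at 300 DD and 14.55 to 14.72 at 500 DD. By stage mean this is the same order too, although the arrays of 250 and 300 DD overlapped. The 10 embryo probe sets summed to 6.40 at 100 DD, 8.72 to 9.65 at 200 DD, 9.67 to 10.47 at 250 DD, 11.28 to 11.48 at 300 DD and 16.64 on both arrays at 500 DD. From 200 DD on this sum was ordered by stage like the _a_at probe set of 6-FEH. On each array up to 250 DD only 1 of the 10 embryo probe sets was at or above the background level. The sum at 200 and 250 DD thus rests mainly on 1 probe set, and the likeness there is not that of the whole list. At 100 DD the embryo sum was lowest, while the _a_at probe set was at 8.32.

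The 16 endosperm probe sets summed to 8.43 on the 100 DD array and to between 17.38 and 18.18 on the others, so the step from 100 to 200 DD, at which all 3 tested members were lower, was also the step with the largest difference in these markers. Of the top markers of each list by mean, the purothionin THI1.1 was at 7.06 at 100 DD and 15.12 or more afterwards. LEA1 (LOC543476), a late embryogenesis protein, was at 4.98 at 100 DD and at 8.52 and 9.54 at 200 DD. It was at 11.02 and 11.29 at 300 DD and at 12.00 and 12.36 at 500 DD. Its mean thus changed most from 100 to 200 DD, whereas the embryo sum, which includes it, changed most from 300 to 500 DD. OEE2 (LOC543290), a subunit of photosystem II, was at 11.31 at 100 DD and 6.99 and 8.03 at 500 DD. The tubulin TUBA was at 13.84 at 100 DD, 13.37 and 13.36 at 200 DD, 13.53 and 13.36 at 300 DD and 12.84 and 12.30 at 500 DD, and was thus not lower at 300 than at 200 DD, unlike the sum of its list. The part of these tissue markers in the courses of XTH and 6-FEH was not tested.

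**Figure D4:**
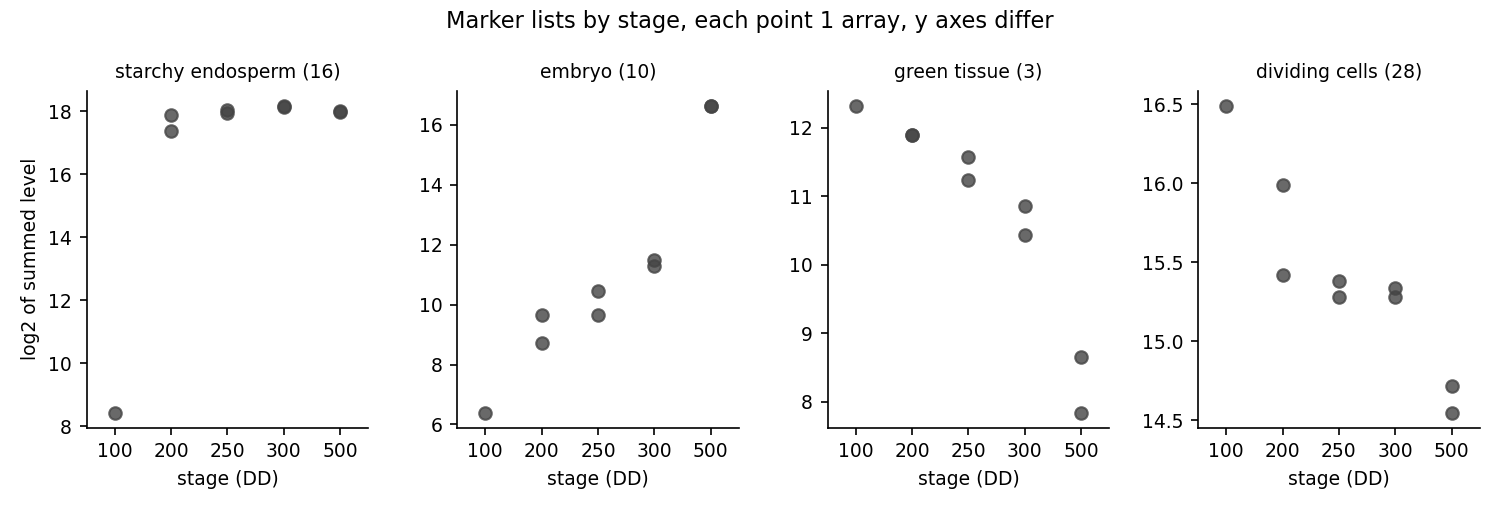
Log2 of the summed linear level of 4 marker lists by stage, with 1 point per array used, the number of probe sets in brackets and a different y axis in each panel. Endosperm markers stand at 8.43 at 100 DD and at 17.38 or more from 200 DD on, embryo markers are highest at 500 DD (16.64), and markers of green tissue and dividing cells are highest at 100 DD (12.32 and 16.49).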

How the data were processed

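The authors processed the raw array files in Bioconductor by GCRMA (version not given in the sources used), and what they deposited is 1 series-wide table of log2 values, covering 10 arrays with 61179 probe sets plus 111 controls of the manufacturer. Background was corrected and probes were summarized before deposit, so values near 2 carry no order. All 10 columns were mapped and 0 other columns were present. Controls were left out.

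The members, lists and alternatives were chosen with earlier results of these data known, including the array labelled 100 DD replicate 2, which was left out. Members were all probe sets paired with LOC780575 (synonym 6-FEH) or XTH. An array annotation pairs 1273 probe sets with 1 symbol, 0 with several and 59906 with none, and 1272 matched RefSeq gene names. Lists were made by hand, by mapping their terms to symbols and synonyms once the annotation was at hand, since no descriptions were used. They were fructan and sucrose, cell wall, starchy endosperm, embryo, green tissue and dividing cells.

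Probe sets at 4 or above on at least 2 of 9 arrays (24727) were fitted with limma 3.58.1 in R 4.3.3, with a mean per stage and the contrast of filling (300 and 500 DD) minus division (100, 200 and 250 DD), or with stages as covariates for replicate 2 minus replicate 1. P-values were adjusted by Benjamini-Hochberg with a threshold of 0.05, two-sided. The lone 100 DD array takes its variance from the other stages. Members received no test along the stages. Both fits were checked on simulated data with known changes. The simulated noise was independent between arrays, so the check does not cover deviations that arrays of the same replicate number share. A marker sum is the log2 of the summed linear values of a list.

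Named genes were the member probe sets, the 3 named probe sets of other genes with the highest Pearson r over the 9 arrays for each member passing the filter, the called probe sets of the pathway lists and the gene with the highest mean of each marker list. IVR1 is named in addition, after its values were seen. Replicate numbers come from the titles. Deviations of replicate 1 from the stage means had correlations from 0.249 to 0.718 over 6 pairs of stages, all above 0.1, so the numbers were taken to pair the arrays. Precision is limited by having 2 arrays per stage. Sequences and genome positions were not used here.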

Additional observations from a re-analysis of the deposited data

Results flagged for a closer look

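Between 200 and 250 DD the replicates ran in opposite directions for 2 probe sets, a difference that was not tested and that rests on 1 pair of arrays each. XTH changed by 0.01 on the log2 scale in replicate 1 and by -1.11 in replicate 2. The _x_at probe set of 6-FEH changed by -0.03 in replicate 1 and by 0.62 in replicate 2. In both cases the change in replicate 1 was close to 0.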

How the results depend on the processing

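Differences of the members that start at 100 DD mostly depended on which 100 DD array was used. That of the _a_at probe set of 6-FEH from 100 to 200 DD changed little, from -3.15 to -3.40 with both 100 DD arrays averaged. This is no second reading of 100 DD, since the added array went against its label. On it this probe set was at 8.82, near its values of 8.48 and 8.41 at 500 DD. With 100 DD as the mean of both arrays, the difference from 100 to 200 DD turned from -1.55 to 0.73 for XTH and moved from -2.75 to -1.94 for the _x_at probe set of 6-FEH, and that from 100 to 500 DD moved from -4.39 to -2.11 for XTH and from -2.25 to -1.44 for the _x_at probe set, and turned from 0.13 to -0.12 for the _a_at probe set of 6-FEH. With values under 4 set to 4, an alternative chosen after seeing the data, the difference of XTH from 200 to 500 DD was -2.33 instead of -2.84 and that from 300 to 500 DD -0.97 instead of -1.48, and no count of calls moved by over 1.5 times. A background level of 5 put both 500 DD arrays of XTH under it, where a level of 3 or 4 put 1. The differences between replicates of the 3 tested members kept their direction and did not pass under all 16 alternatives each, with adjusted p from 0.138 to 1, and ranged from -1.57 to -0.45 for XTH, 0.42 to 0.71 for the _a_at and -0.43 to -0.04 for the _x_at probe set. Over all probe sets, the count for replicate 2 minus replicate 1 went from 0 to 208 with the stricter filter of 4 arrays, to 48 with quantile normalization again and to 245 with trend and robust in eBayes, and to between 0 and 156 when 1 array was left out, with 156 without either 200 DD array.

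For filling minus division, the count of 6544 (2763 higher and 3781 lower) went to 0 with all 10 arrays, to 255 with Bonferroni adjustment (199 higher and 56 lower), and with the methods' t-test in 2 groups to 2 after Benjamini-Hochberg and 1 after Bonferroni adjustment. Leaving out 1 array gave 3678 (without 100 DD replicate 1) to 6356, with 4205 without 300 DD replicate 2 and 4349 without 500 DD replicate 1. With the replicate number as a replicate block the count was 7379, and the block changed no call of 1-FEHw2 or COMT1. Their counts of 1 each went to 0 with all 10 arrays, with Bonferroni adjustment and with the methods' t-test by either adjustment, and to between 0 and 1 when 1 array was left out, with 0 only without 100 DD replicate 1. The cause of these changes was not tested.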
